A study of Sus scrofa with 6 samples.

Results

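The genes described here encode the machinery that shortens and destroys messenger RNA, chosen as a list of 38 gene symbols for maternal mRNA deadenylation and decay. Of these, 35 stood in the deposited expression table of 30376 genes, and all 35 had enough reads to be tested. The symbols TUT4, TUT7 and PATL2 were not matched. The samples were pig embryos that had developed from oocytes activated electrically, with 2 direct-current pulses of 120 V, and that were collected at the 4-cell stage. Control embryos (3 libraries, genotype labelled WT) were cultured for 4 days at 38.5 °C, and high-temperature embryos (3 libraries, with HT entered in the genotype field) for 4 days at 41.5 °C in the same medium. The labels state about 300 samples in lysis buffer for library construction, without saying whether that number is per library, and do not state whether replicates were separate cultures. All p-values therefore measure only how far these libraries differ from each other, which can include technical noise. The series asks how heat affects activation of the embryonic genome.

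An oocyte stores its messages with short or protected poly(A) tails, and the embryo must clear many of them when it begins to transcribe its own genes. Clearance starts with deadenylation by the CCR4-NOT complex and the PAN2-PAN3 enzyme, which adaptors and RNA-binding proteins bring to chosen messages. The shortened message then loses its cap and is digested from the decapped end by XRN1, or is digested from the tail end by the exosome. In mouse oocytes BTG4 is the adaptor that licenses this clearance at the end of meiosis.

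The libraries held 28114005 to 30079385 reads assigned to genes. Transcripts that define the oocyte and early embryo were present, with BMP15 at 838 ± 105 CPM (SD, n = 3; reads scaled to the size of each library) in controls and 888 ± 81.2 CPM in heated embryos, and GDF9 at 120 ± 18.3 and 121 ± 13.3 CPM. Of 12 listed markers of this kind 11 stood in the table, at widely differing levels. ZP4 had 6651 to 9106 reads per library, but NLRP5 had only 113 to 296 and ZAR1 54 to 126. Of 12 rows for cumulus and granulosa markers, 7 were at 0 in all 6 libraries. Among them were FSHR, AMH, FOXL2, CYP11A1 and 1 of the rows for INHBA. The other INHBA row had 119 to 283 reads per library. TNFAIP6 had 40 to 91 reads, CYP19A1 7 to 14 and PTX3 3 to 10. The 12 rows summed to 35.8 to 67.8 CPM in controls and 42.5 to 79.7 CPM at high temperature. Most of this came from NR5A2 (25.1 to 69.4 CPM), which embryos also transcribe. The 9 stromal and blood rows summed to 10.3 to 13.7 CPM. The even sum hides single rows that differed. COL3A1 had 50, 23 and 43 reads in controls and 20, 11 and 0 at high temperature, and DCN 27 to 38 and 8 to 31. Of the 7 rows tested, 2 were higher and 5 lower at high temperature, and 0 had an adjusted p below 0.05 by edgeR. The groups did not overlap for 1 of them, COL3A1, against 7.71% of all tested genes. Ribosomal protein genes (79 by symbol) took 1.39% of the reads in control library 1 and 1.23% in high-temperature library 1, against 0.588% and 0.573% in control library 3 and high-temperature library 3. The scaling factor of control library 1 was 0.865, with the other libraries between 0.9996 and 1.09.

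Culture at 41.5 °C gave no called difference in any decay factor. By the edgeR quasi-likelihood test, 0 of the 35 members had an adjusted p below 0.05 (all at 0.999923), where 0% of the 16056 tested genes were called. At an unadjusted p below 0.05 the members again numbered 0, against 1.85% of all tested genes. DESeq2 called 0 members, against 0.0374% of the 16051 genes to which it gave an adjusted p. At an unadjusted p below 0.05 DESeq2 gave 0 members, against 292 of the 16056 tested genes. In scaled CPM the groups of libraries were fully separated for 1 member, CNOT6, which is 2.86% of the list where the share over all tested genes was 7.71%. A share so near or under the background is no result about these genes.

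The sizes of the differences were small. The log2 fold change, high temperature against control, ran from -0.48 (DIS3) to 0.53 (ZFP36), with a median of -0.05 over the members and -0.02 over all tested genes. By sign, 10 members were above 0 (28.6%) and 25 below, where 47.5% of all tested genes were above 0. With reads scaled to the library total alone the split was 19 above and 16 below, and among the 31 members tested on the log2(TPM + 1) scale it was 18 above and 13 below. These choices moved all genes in the same direction: the median of all genes was 0.08 with the library total alone and 0.04 on the log2(TPM + 1) scale, beside 0.04 and 0.025 for the members. The median of the members was thus under that of all genes on each of these scales. Without the filter on low values it was above, at 0.025 against 0.021 on log2(TPM + 1). Between libraries of a group, the median over the members in log2 CPM had an SD of 0.033. The gap between the medians was not tested. In 28 of 35 members (80%) the difference between temperatures was smaller than the standard deviation within a group, as in 76.7% of all tested genes. A 4-fold difference lay outside the 95% interval for all 35 members (91.6% of all tested genes) and a 2-fold difference lay outside it for 27 (49.6% of all tested genes). The 8 intervals that reached 2-fold belonged to CNOT2, CNOT3, CNOT8, ZFP36, ZFP36L2, PABPN1L, DDX6 and DIS3. Messages were captured on oligo(dT) from pooled embryos, so fewer molecules, fewer embryos carrying them and shorter tails cannot be told apart.

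**Figure D1:**
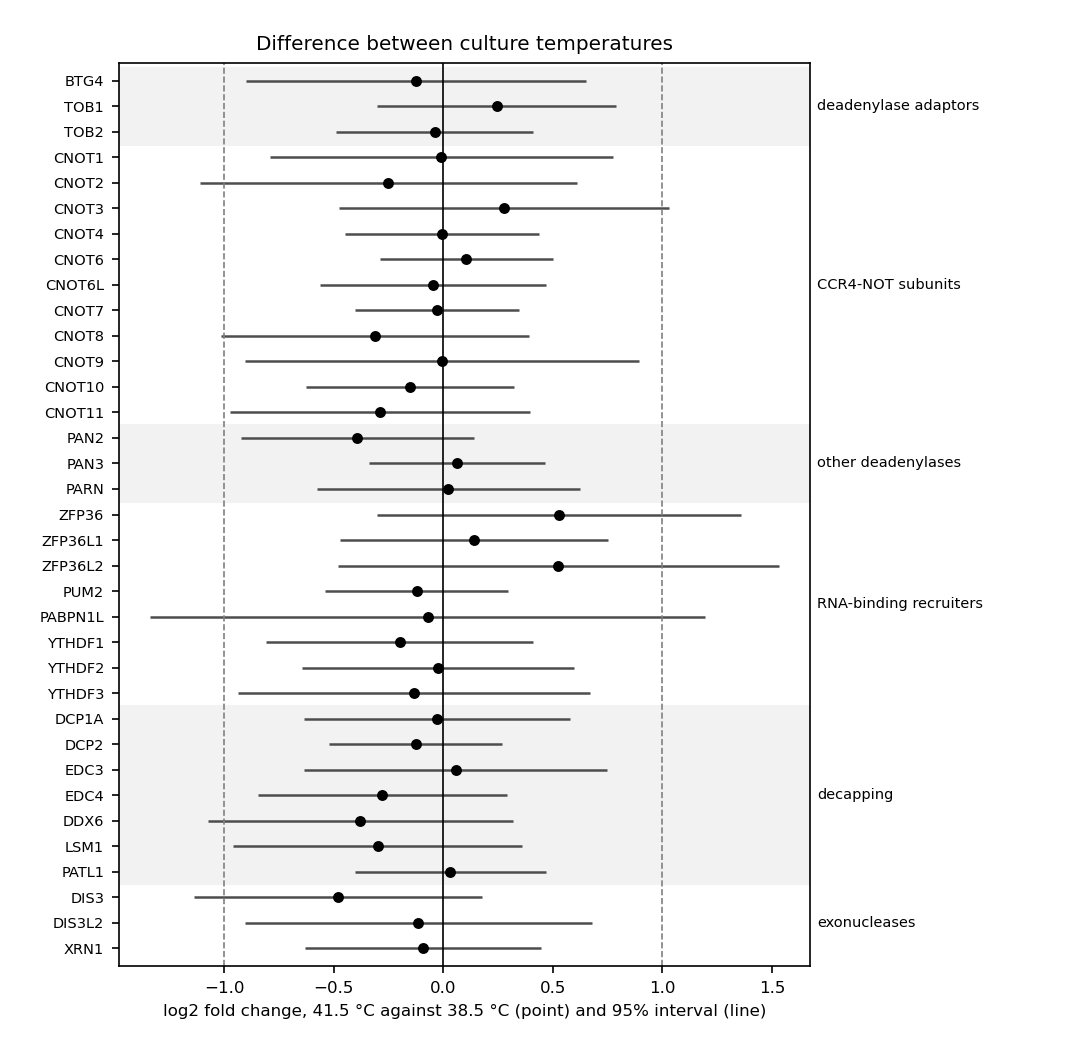
Log2 fold change of each of the 35 decay factors, 41.5 °C against 38.5 °C (points), with the 95% interval from the edgeR fit (lines), grouped by role. Every interval spans 0, and dashed lines mark a 2-fold difference in either direction.

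BTG4 dominated the list by level. BTG4 (chromosome 9, 39253116 to 39281327, Sscrofa11.1) bridges the CCR4-NOT deadenylases to messages in oocytes. Its level in TPM, which is scaled per transcript length and so allows genes to be compared, was 2563, 4795 and 5871 in the 3 control libraries and 2411, 4187 and 6177 in the 3 high-temperature libraries. These values placed BTG4 at rank 26 of all listed genes by mean TPM, and it made up 71.0% to 86.8% of the summed TPM of the 35 members in each library. The groups overlapped throughout, and the lowest value in each group was that of library 1 and the highest that of library 3. The fitted log2 fold change was -0.12 (standard error 0.34, 95% interval -0.90 to 0.65), so the 2.31-fold range of scaled CPM over the 6 libraries exceeded the difference between temperatures.

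TOB1 and TOB2, adaptors that link the poly(A)-binding protein to the same deadenylases, were far less abundant. TOB1 was at 21.0, 25.1 and 22.3 TPM in controls and 35.8, 25.9 and 24.1 TPM at high temperature. High-temperature library 1 alone stood above the rest, and the log2 fold change was 0.24 (95% interval -0.30 to 0.79). TOB2 was at 4.89 to 6.94 TPM in controls and 5.40 to 6.79 TPM at high temperature, with overlapping groups.

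**Figure D2:**
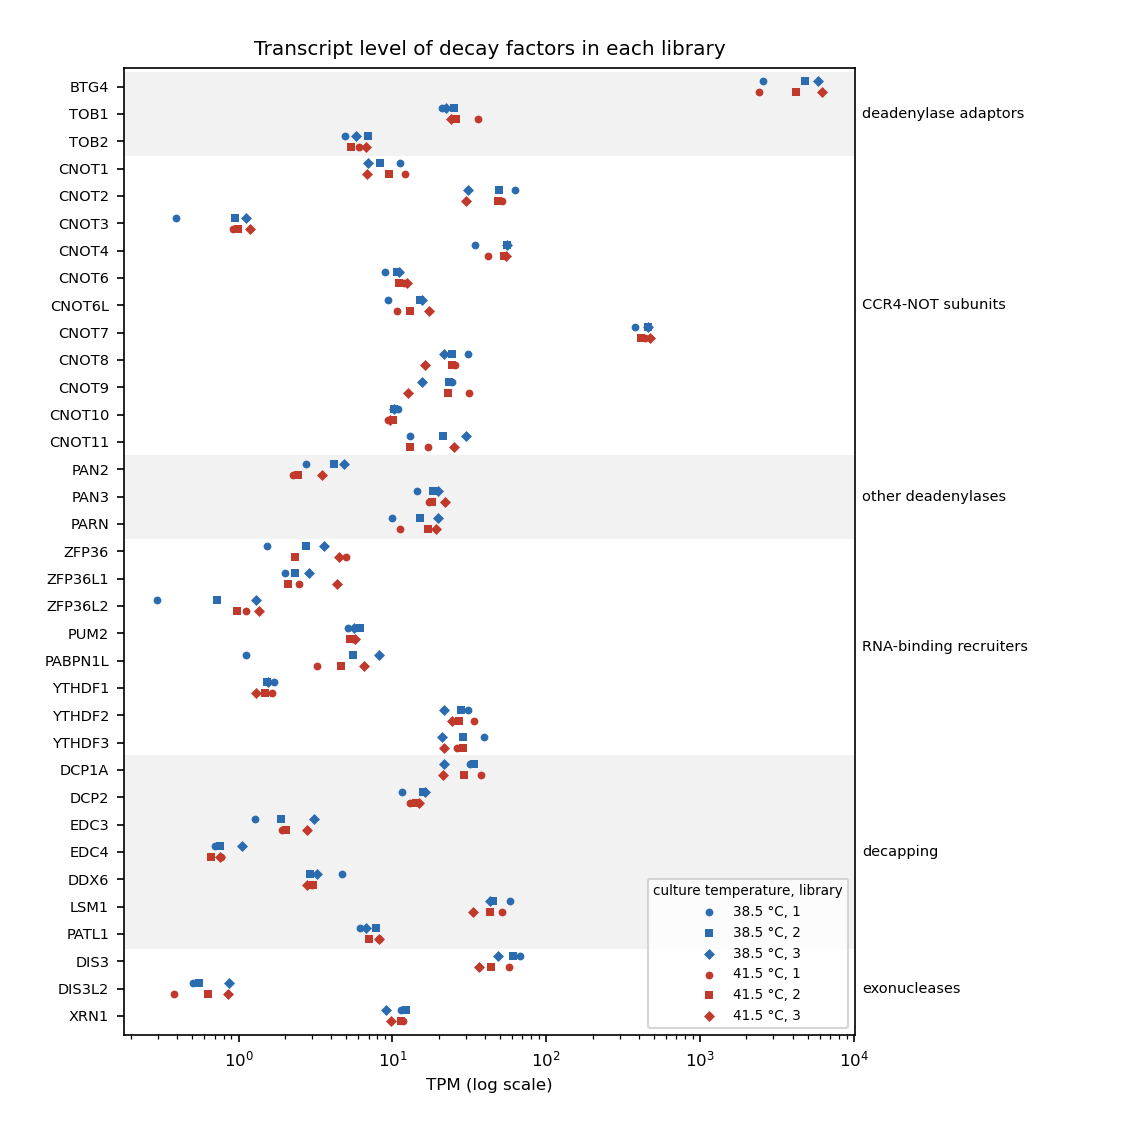
TPM of each of the 35 decay factors in each library on a log scale, grouped by role, with 38.5 °C in blue and 41.5 °C in red and the marker shape giving the library number. BTG4 stands between 2411 and 6177 TPM and CNOT7 between 376 and 474 TPM, above all other members.

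Among the 11 measured subunits of CCR4-NOT, the nuclease CNOT7 stood well above the others. CNOT7 (chromosome 17, 4934379 to 4950093) was at 376, 461 and 456 TPM in controls and 436, 412 and 474 TPM at high temperature, rank 189 of all genes. The next subunits were CNOT4, a ubiquitin ligase loosely bound to the complex, at a mean of 49.2 TPM over the 6 libraries, and CNOT2 of the NOT module, at 45.5 TPM. The ranges of CNOT4 (34.6 to 55.8 TPM) and CNOT2 (30.1 to 62.5 TPM) overlapped, so their order is not set by these data. CNOT8, the paralog of CNOT7, followed at 23.9 TPM, with CNOT9, a binding platform for RNA-binding proteins, at 21.7 TPM and CNOT11 at 19.9 TPM. CNOT6L and CNOT6, the alternative nucleases of the other catalytic class, were at 13.6 and 11.02 TPM, and CNOT10, partner of CNOT11, at 10.05 TPM. CNOT1, the scaffold on which all others assemble, was at 9.17 TPM, and CNOT3 of the NOT module was lowest at 0.926 TPM. CNOT3 rested on only 51 to 135 reads per library.

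CNOT7 and CNOT6 were among the steadiest transcripts in scaled CPM. CNOT7 was at 668, 693 and 656 CPM in controls and 676, 629 and 670 CPM at high temperature, and its within-group SD on the log2 CPM scale lay at percentile 0.333 of the 6310 genes with a mean of at least 10 CPM. CNOT6 (chromosome 2, 78131236 to 78202518) was at 48.7, 50.8 and 48.7 CPM in controls and 55.0, 51.4 and 52.9 CPM at high temperature, at percentile 0.174. All 3 high-temperature values of CNOT6 lay above the controls, by a log2 fold change of 0.10 (standard error 0.17, 95% interval -0.29 to 0.50, unadjusted p = 0.561 by edgeR). In TPM the CNOT6 groups overlapped, at 9.01 to 11.07 in controls and 11.05 to 12.47 at high temperature. The TPM of CNOT7 was lower in both libraries numbered 1 than in both numbered 3, so its evenness depends on the scale.

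In scaled CPM the remaining CCR4-NOT subunits differed more between libraries of a group than between temperatures. CNOT1 was at 85.7, 52.3 and 42.1 CPM in controls and 78.3, 61.0 and 39.6 CPM at high temperature (log2 fold change -0.01). CNOT9 was at 81.1, 64.9 and 41.0 CPM and at 89.1, 64.6 and 32.5 CPM (-0.01), and CNOT2 at 137, 89.7 and 54.1 CPM and at 95.5, 89.6 and 50.6 CPM (-0.25). In each of these the value of library 1 was the highest of its group and that of library 3 the lowest. CNOT8, at 68.4, 44.4 and 38.2 CPM in controls and 48.5, 45.5 and 27.6 CPM at high temperature, had the lowest fold change of the complex (-0.31, 95% interval -1.01 to 0.39), which was -0.029 without control library 1 and -0.064 without high-temperature library 3. CNOT4 (-0.01), CNOT6L (-0.05), CNOT10 (-0.15), CNOT11 (-0.29) and CNOT3 (0.28) likewise had overlapping groups in CPM. In TPM the groups of CNOT10 did not overlap, at 10.21 to 10.83 in controls and 9.39 to 10.02 at high temperature. On the log2(TPM + 1) scale 1 member was separated, against 5.90% of all tested genes, so the separated member depends on the scale.

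The other deadenylases gave the most separated pair. PAN2 (chromosome 5, 21712222 to 21730528) is the nuclease of the PAN2-PAN3 enzyme, and PAN3 (chromosome 11, 5487019 to 5614458) is the partner that binds poly(A)-binding protein. PAN2 was at 12.3, 14.9 and 17.4 CPM in controls and 10.2, 10.4 and 13.3 CPM at high temperature, where only high-temperature library 3 reached the control range. Its log2 fold change was -0.39 (standard error 0.23, 95% interval -0.93 to 0.14, unadjusted p = 0.128 by edgeR). PAN3 was at 72.9, 81.7 and 79.4 CPM in controls and 79.8, 78.1 and 86.8 CPM at high temperature, with a log2 fold change of 0.06 (95% interval -0.34 to 0.47). PARN, a poly(A) ribonuclease that also binds the cap, was at 9.91 to 19.7 TPM in controls and 11.2 to 19.3 TPM at high temperature (0.02).

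A ratio of 2 members within a library does not depend on how libraries are scaled to each other, and 8 such pairs were compared. PAN3 exceeded PAN2 in TPM by 5.25, 4.42 and 4.13 times in the control libraries and by 7.65, 7.43 and 6.31 times in the high-temperature libraries. All high-temperature ratios of this pair lay above all control ratios, a mean difference of 0.63 on the log2 scale (p = 0.1 by a two-sided exact permutation test, which with 3 libraries a side cannot go lower, and 0.533 adjusted over the 8 pairs). From the read counts the difference was 0.45. For the other 7 pairs the groups overlapped, with p from 0.2 to 0.6 by the same exact test. CNOT7 exceeded CNOT8 by 12.2 to 21.1 times in controls and 16.9 to 29.0 times at high temperature, while CNOT6L and CNOT6 were close to each other, at ratios of 1.04 to 1.42 and 0.910 to 1.40. The design cannot reach p below 0.05 for any pair.

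**Figure D3:**
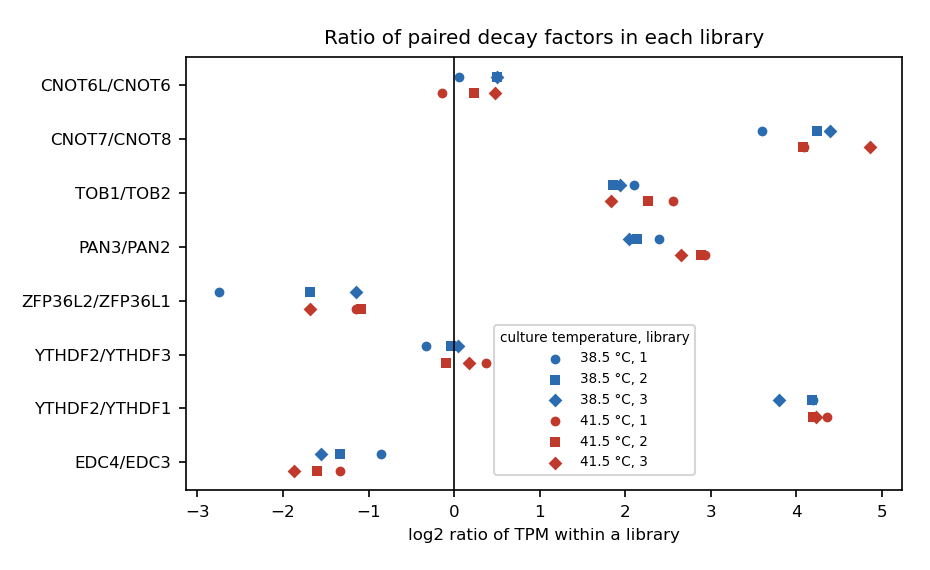
Log2 ratio of TPM for 8 pairs of decay factors within each library, with 38.5 °C in blue and 41.5 °C in red and the marker shape giving the library number. The groups are apart only for PAN3/PAN2, at 2.05 to 2.39 in controls and 2.66 to 2.94 at high temperature.

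RNA-binding proteins that choose the messages were at low to moderate levels. YTHDF2 and YTHDF3, readers of methylated adenosine that bring CCR4-NOT to their targets, were the most abundant of them, at means of 27.8 and 27.6 TPM that their ranges do not separate. YTHDF1 was at 1.54 TPM. YTHDF3 was at 180, 108 and 75.5 CPM in controls and 138, 115 and 78.2 CPM at high temperature (log2 fold change -0.13), and YTHDF2 at 348, 259 and 193 CPM and at 322, 254 and 209 CPM (-0.03). Both were highest in library 1 of each group and lowest in library 3, with overlapping groups. PUM2, a Pumilio repressor, was at 5.12 to 6.197 TPM over all 6 libraries.

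Of the AU-rich element binding proteins of the ZFP36 family, ZFP36 and ZFP36L2 had the fold changes farthest above 0 on the list, on few reads. ZFP36 was at 2.35, 3.52 and 4.32 CPM in controls and 6.47, 2.99 and 5.23 CPM at high temperature, with high-temperature library 2 inside the control range (log2 fold change 0.53, 95% interval -0.31 to 1.36). ZFP36L2, which in mouse is needed in the oocyte, had 15, 35 and 61 reads in controls and 54, 47 and 62 reads at high temperature. Control library 1 was the low value, and the log2 fold change of ZFP36L2 was 0.53 (95% interval -0.48 to 1.53). ZFP36L1 was at 5.79 to 6.74 CPM in controls and 5.21 to 8.89 CPM at high temperature (0.14).

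PABPN1L, an oocyte poly(A)-binding protein that in mouse recruits BTG4, had the widest range of any member. It was at 2.501, 10.2 and 14.3 CPM in controls and 6.09, 8.58 and 11.02 CPM at high temperature, a 5.72-fold range over the 6 libraries against a log2 fold change of -0.07 (95% interval -1.34 to 1.19). Like BTG4 it was lowest in library 1 and highest in library 3 of both groups.

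Decapping factors spanned 0.783 to 45.7 TPM. LSM1, a subunit of the ring that binds deadenylated ends, led at a mean of 45.7 TPM, followed by DCP1A, cofactor of the decapping enzyme, at 29.3 TPM, and DCP2, the enzyme itself, at 14.3 TPM. The scaffold PATL1 was at 7.36 TPM, the helicase DDX6 at 3.28 TPM, and the enhancers of decapping EDC3 and EDC4 at 2.16 and 0.783 TPM. DDX6 was at 25.8, 13.5 and 13.2 CPM in controls and 14.2, 14.4 and 11.8 CPM at high temperature, so control library 1 alone stood apart. Its log2 fold change of -0.38 (95% interval -1.07 to 0.32) was 0.0088 without control library 1. DCP2 was at 158, 179 and 177 CPM in controls and 151, 163 and 156 CPM at high temperature (-0.13, 95% interval -0.52 to 0.27), and EDC4 at 70 to 110 reads per library (-0.28, 95% interval -0.85 to 0.29). LSM1 (-0.30), DCP1A (-0.03), EDC3 (0.06) and PATL1 (0.03) had overlapping groups as well.

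DIS3 had the fold change farthest below 0 on the list. DIS3 (chromosome 11, 45046040 to 45075973) is the catalytic subunit of the exosome. It was at 320, 240 and 183 CPM in controls and 229, 172 and 131 CPM at high temperature. In each group library 1 was highest and library 3 lowest, and only high-temperature library 1 lay within the control range, the other two being under it. The log2 fold change was -0.48 (standard error 0.28, 95% interval -1.14 to 0.17, unadjusted p = 0.129 by edgeR). Leaving out 1 library moved it to between -0.71 (without high-temperature library 1) and -0.25 (without control library 1), with -0.66 without control library 3 and -0.27 without high-temperature library 3. It was -0.08 with control library 1 and high-temperature library 3 both left out, which removes the highest control and the lowest heated library. That sets control libraries 2 and 3 against high-temperature libraries 1 and 2. DIS3 fell from library 1 to library 3 in each group, so library number and temperature cannot be told apart in that setting. For each library number the high-temperature value of DIS3 was the lower. The same held in CPM for CNOT2, CNOT10, PAN2, PUM2, YTHDF1, DCP2, EDC4 and LSM1. The share of all tested genes with this pattern was not counted. A fit that adds the replicate number as a term gave DIS3 a log2 fold change of -0.48. Its unadjusted p was 0.00134 and its adjusted p 0.279 (edgeR). The labels do not pair libraries by number. XRN1, the nuclease that follows decapping, was at 107, 96.2 and 67.9 CPM and at 93.2, 90.2 and 70.6 CPM (-0.09, 95% interval -0.63 to 0.44). DIS3L2, which digests messages tailed with uridine, had 31 to 66 reads per library (-0.11).

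Uridine is added to shortened tails by TUT4 and TUT7. Among the listed genes, 2 carried the older symbols of these enzymes, ZCCHC11 for TUT4 and ZCCHC6 for TUT7, and were read outside the list, a choice made after the data were seen. ZCCHC6 was at 19.1 to 28.6 TPM in controls and 18.3 to 26.0 TPM at high temperature (log2 fold change -0.20), and ZCCHC11 at 0.564 to 0.676 and 0.631 to 0.934 TPM (0.12). Both had overlapping groups, and adding them left the list at 0 called members.

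The decay factors did not vary together across libraries. In scaled CPM, 16 of the 35 members were higher in both libraries numbered 1 than in both numbered 3, 12 were lower in both, and 7 were not separated, where all tested genes gave 32.1% higher and 35.3% lower. The split depends on the scale: in TPM 11 were higher, 16 lower and 8 not separated, against 24.8% higher and 44.7% lower over all tested genes. On both scales 11 members were higher in the libraries numbered 1, namely CNOT1, CNOT2, CNOT8, CNOT9, YTHDF1, YTHDF2, YTHDF3, DCP1A, LSM1, DIS3 and XRN1. On both scales 12 were lower there, namely BTG4, CNOT3, CNOT4, CNOT6L, CNOT11, PAN2, PARN, ZFP36L1, ZFP36L2, PABPN1L, EDC3 and DIS3L2. The CCR4-NOT subunits were thus divided between the sides, and PUM2 was on opposite sides in CPM and in TPM. BTG4 exceeded its nuclease partner CNOT7 in TPM by 6.82, 10.4 and 12.9 times in controls and by 5.53, 10.2 and 13.03 times at high temperature, which are ratios free of scaling between libraries. The share of reads from ribosomal protein genes, given above, was high in the same libraries numbered 1, and its part in these differences was not tested. By the chi-square distance between read counts, each library was closest to the library of the same number at the other temperature (49.5, 25.0 and 20.6 per gene for numbers 1, 2 and 3). The labels do not say that a number marks a shared batch. This grouping of libraries was made after their values were seen.

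**Figure D4:**
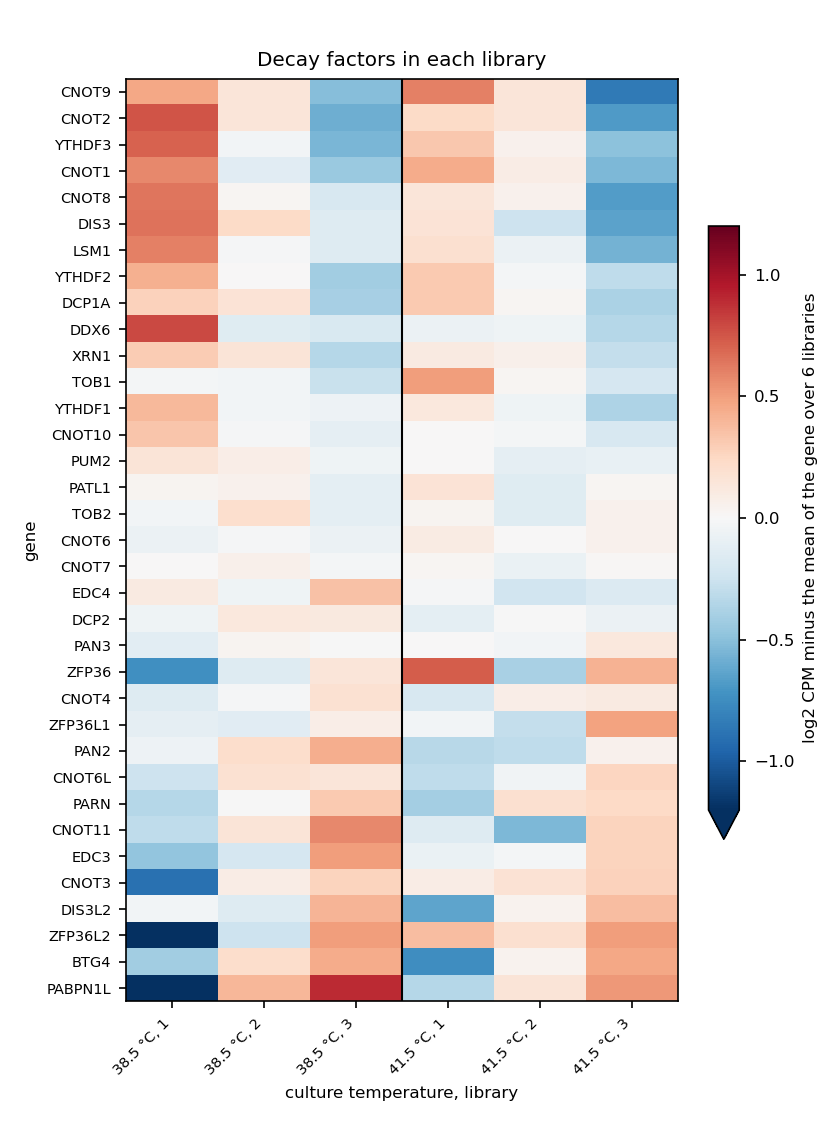
Log2 CPM of each decay factor in each library minus the mean of that gene over the 6 libraries, with genes ordered by the difference between libraries 1 and 3. Red is above and blue below the mean of the gene. CNOT9 and CNOT2 at the top and BTG4 and PABPN1L at the bottom run in opposite directions in both temperatures, and CNOT6 and CNOT7 stay near 0.

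Other genes of messenger RNA decay also gave no called difference. Of 66 tested genes in 6 further lists, 0 were called by edgeR or DESeq2, with 28 above 0 and 38 below. The groups did not overlap in CPM for 7 of the 66, where the share over all tested genes was 7.71%. Of the genes named below these were LSM3, EXOSC7, SKIV2L2, PABPN1 and SAMD4A. In the LSM ring and decapping list (3 above 0, 5 below), the smallest p belonged to LSM3 (log2 fold change -0.48) and LSM4 (-0.46). In the exosome and SKI list, which holds the other subunits of the complex that DIS3 serves, 3 of 17 were above 0 and 14 below, with a median of -0.19. Over all tested genes 47.5% were above 0 in this fit. The summed level of the list was 1850, 1201 and 929 CPM in controls and 1430, 1151 and 780 CPM at high temperature. It was highest in library 1 and lowest in library 3 of both groups. EXOSC7 was at 13.2, 9.83 and 10.4 CPM in controls and 6.54, 8.55 and 6.87 CPM at high temperature, without overlap (-0.61, unadjusted p = 0.0319 and adjusted p = 0.999923 by edgeR), and SKIV2L2, the nuclear exosome helicase, at 178 to 208 and 159 to 172 CPM (-0.23). Nonsense-mediated decay had 6 above 0 and 6 below, with UPF1, its central helicase, at 0.23. The list of remaining deadenylases and BTG proteins (2 above, 5 below) was led by PDE12 (-0.43) and BTG3 (-0.30), and poly(A)-binding proteins (1 above, 3 below) by PABPN1 (0.21) and PABPC1 (-0.34). Further recruiters and uridylation factors had 13 above 0 and 5 below, led by SAMD4A (1.11, at 0.598 to 0.862 and 1.18 to 2.02 CPM) and TNRC6C (0.53).

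Oocyte messages that are known substrates of this decay showed no called difference either. Of 21 tested, 12 were above 0, 9 below and 0 called, with a median log2 fold change of 0.01. Their summed level was 3360, 4557 and 5300 CPM in controls and 3833, 4202 and 5119 CPM at high temperature, lowest in library 1 and highest in library 3 of both groups, as for BTG4. CCNB1, the cyclin of M phase, had the smallest p of the list and was at 602, 697 and 653 CPM in controls and 486, 490 and 519 CPM at high temperature (-0.39, unadjusted p = 0.0501 and adjusted p = 0.999923 by edgeR). The groups did not overlap for 1 of the 21, CCNB1, where the share over all tested genes was 7.71%. ZP3, a zona pellucida protein, followed (0.31). The library order of the sum did not hold for each gene. CCNB1 was highest in control library 2, and ZP3 was lowest in high-temperature library 2. In the other group each kept that order.

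Reads of some members could be shared with neighbours, since the kit does not mark strand and the sources used here do not give the counting rule. The spans of 15 of the 35 members overlap another gene of the table, and for 7 of these the neighbour held over 10% as many reads as the member. They were CNOT3 (with LENG1), EDC3 (CLK3), CNOT8 (GEMIN5), CNOT6L (MRPL1), CNOT11 (RNF149), LSM1 (BAG4) and CNOT7 (VPS37A). The values of CNOT3 and EDC3 are the least certain, as LENG1 had 781 to 1327 reads per library and CLK3 664 to 1206. BTG4 overlaps C9H11orf88 and a microRNA gene, which held at most 9 and 2 reads per library.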

How the data were processed

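Poly(A) RNA was captured on oligo(dT) beads and sequenced from 6 libraries prepared with a SMART-Seq v4 kit, per the labels' protocols. The read counts per gene, whole numbers without normalization, and the TPM and FPKM values were deposited by the authors, per the file headers. The coverage signal in each library's own table, also deposited, was not used. Sscrofa11.1 is the build in the submitters' processing notes, which list StringTie 2.1.3b, Bowtie2, HISAT, HISAT2 2.1.0 and Trimmomatic 0.38 without their roles. The sources used here do not give the counting tool. Each column matched its own library's FPKM table for 99.2% to 99.3% of genes with a value above 0 (within 1e-05), and no other by more than 0.094%. Positions came from those tables and equal RefSeq's on Sscrofa11.1 for all 35 members. Libraries differed beyond sampling noise in every pair (chi-square per gene 20.6 to 224), so none was a copy.

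The quasi-likelihood test of edgeR 4.0.16 (R 4.3.3) was fitted to the counts of all 6 libraries, after TMM scaling and filterByExpr (16056 genes kept), with group as the only term and Benjamini-Hochberg adjustment at 0.05. CPM use TMM-scaled library sizes. The 24 rows without a symbol, tRNA and rRNA features with an identifier of their own (0.527% to 0.658% of reads), were left in. Within-group SD is that of log2(CPM + 0.1). Ratios within libraries used exact permutation tests. Alternatives were other scaling, filters and units (limma 3.58.1 on log2 values), DESeq2 1.42.0, the replicate number as a block, and left-out libraries. The test was run on simulated data for this comparison, each time with 200 genes changed. It recovered 0% of them at 2-fold (15549 genes tested, 0 false calls), 70% at 4-fold (15535 tested, 7 false) and 89% at 8-fold (15511 tested, 16 false). Genes were simulated independently.

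The members and gene lists were chosen with earlier results of these data known. Every member is named. From each further list the 2 genes with the smallest unadjusted p are named, except 1 that is not reported here, and other marker genes were named as examples after their values were seen. Of the 23 listed substrates 22 stood in the table.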

Additional observations from a re-analysis of the deposited data

How the results depend on the processing

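The count of called members was 0 under every alternative run. The number of called genes over the whole table was 0 in the main test, 6 by DESeq2, 1 with no filter on low counts, 1 with control library 1 and high-temperature library 3 both left out, and 3 with the replicate block (edgeR with the replicate number as a term), while each single left-out library gave 0. The labels do not say what a replicate number marks, and the data are mixed on it. Deviations from the group means correlated at 0.52, 0.008 and 0.59 for numbers 1, 2 and 3, and library 2 of neither group correlated best with its own number, but by chi-square distance every library was closest to its own number. This is a hint from the data, not the design, and the fit without the block was kept. The block moved the unadjusted p of DIS3 from 0.129 to 0.00134 by edgeR. That of PAN2 moved from 0.128 to 0.0234 by edgeR, and neither gene was called. The median log2 fold change of the members, -0.05, was 0.04 with the library total only, 0.025 on the log2(TPM + 1) scale with or without the filter on low values, 0.023 on log2(TPM + 0.1) and 0.029 on log2(FPKM + 1), while the median of all genes moved from -0.02 to 0.08, 0.038 (0.021 without the filter), 0.047 and 0.032, so the sign changed together with that of all genes. It ran from -0.11 to -0.029 without a library in turn. The number of members with separated groups was 2 on the log2(FPKM + 1) scale (5.71% of all genes). Without a library in turn it was 2 to 7 (12.7% to 18.5% of all genes), and fewer libraries separate more easily. With both libraries left out it was 13 (46.4% of all genes). That setting sets control libraries 2 and 3 against high-temperature libraries 1 and 2. Library number and temperature cannot be told apart there.

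Of 548 recomputed member values 440 had the sign of the main fit and 108 the other, and beyond the shift of all genes above the cause was not tested. The sign was the same in every alternative for 10 members (TOB1, CNOT6, CNOT11, PAN2, ZFP36, ZFP36L2, PUM2, DCP2, EDC4 and DIS3). With the library total only, log2 fold changes of the other sign were TOB2 0.056, CNOT1 0.11, CNOT4 0.079, CNOT6L 0.041, CNOT7 0.066, CNOT9 0.099, YTHDF2 0.089, DCP1A 0.075 and XRN1 0.013. On log2(TPM + 1), with and without the filter, they were TOB2 0.047, CNOT1 0.084, CNOT4 0.060, CNOT6L 0.042, CNOT7 0.036, CNOT9 0.025, PABPN1L 0.17, YTHDF2 0.082, DCP1A 0.0033 and XRN1 0.012. On log2(TPM + 0.1) they were 0.056, 0.092, 0.062, 0.046, 0.036, 0.023, 0.29, 0.085, 0.0030 and 0.014, and on log2(FPKM + 1) 0.047, 0.084, 0.062, 0.043, 0.039, 0.029, 0.14, 0.083, 0.0061 and 0.014 for the same genes in that order. The replicate block gave CNOT1 0.0016 and PABPN1L 0.15. With both libraries left out, values were CNOT1 0.55, CNOT2 0.36, CNOT3 -0.059, CNOT8 0.18, CNOT9 0.53, CNOT10 0.037, PAN3 -0.038, PARN -0.25, ZFP36L1 -0.14, YTHDF1 0.075, YTHDF2 0.34, YTHDF3 0.46, DCP1A 0.26, EDC3 -0.26, DDX6 0.088, LSM1 0.14 and XRN1 0.15. Ranges without a library in turn that crossed 0 were BTG4 -0.40 to 0.14, TOB2 -0.11 to 0.058, CNOT1 -0.26 to 0.34, CNOT2 -0.53 to 0.13, CNOT4 -0.087 to 0.086, CNOT6L -0.18 to 0.079, CNOT9 -0.36 to 0.33, PARN -0.13 to 0.20, ZFP36L1 -0.075 to 0.29, PABPN1L -0.52 to 0.43, YTHDF2 -0.22 to 0.21, YTHDF3 -0.39 to 0.27, DCP1A -0.21 to 0.17, EDC3 -0.13 to 0.39, DDX6 -0.55 to 0.0088, PATL1 -0.047 to 0.10, DIS3L2 -0.32 to 0.12, XRN1 -0.27 to 0.053, and the log2 ratio of CNOT6L to CNOT6 -0.31 to 0.0047. Ranges that did not cross 0 were TOB1 0.019 to 0.42, CNOT3 0.00067 to 0.50, CNOT6 0.077 to 0.14, CNOT7 -0.051 to -0.0024, CNOT8 -0.48 to -0.029, CNOT10 -0.24 to -0.014, CNOT11 -0.49 to -0.049, PAN2 -0.51 to -0.27, PAN3 0.017 to 0.10, ZFP36 0.27 to 0.78, ZFP36L2 0.18 to 1.03, PUM2 -0.18 to -0.074, YTHDF1 -0.32 to -0.04, DCP2 -0.18 to -0.095, EDC4 -0.37 to -0.17, LSM1 -0.48 to -0.032, DIS3 -0.71 to -0.25. The difference in the PAN3 to PAN2 ratio had the same sign throughout, from 0.45 to 0.73.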
